A study of Mus musculus with 8 samples.

Results

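The EGF family comprises secreted growth factors and the ERBB receptor tyrosine kinases that bind them, and 10 of its genes were followed here in oviductal epithelial cells on 2D and 3D collagen. They were taken by gene symbol: the 3 receptors Egfr, Erbb2 and Erbb3 and the 7 ligands Hbegf, Areg, Ereg, Tgfa, Btc, Epgn and Nrg1. All 10 were among the 23337 symbols of the deposited values. The cells were a line of mouse oviduct epithelium (MOE, strain FVB), and the mouse oviduct is the counterpart of the human fallopian tube. Both groups were trypsinized at confluence, replated and kept for 6 h in MOE medium from which EGF was left out. The groups differed in the substrate, 2D collagen (4 libraries) or 3D collagen gels (4 libraries), and there was no group with EGF. All libraries came from this 1 line. Separate cultures are not named for the replicates. A p-value here weighs the difference between the groups against the spread of libraries within groups, and that spread may be only technical.

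ERBB receptors signal as pairs after a ligand binds. Ligands of the EGF receptor (Egfr) are made as membrane-anchored precursors and are cut free by ADAM proteases, so that a cell can stimulate itself or its neighbours. Erbb2 has no known soluble ligand and acts as the partner of the other receptors, while Erbb3 binds neuregulins such as Nrg1 and relies on its partner's kinase. In epithelia this system is known for driving migration, survival and proliferation through the RAS-ERK and PI3K pathways.

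Egfr and its ligand Hbegf were lower on 3D collagen, Egfr by 2.32-fold and Hbegf by 5.93-fold. Erbb2, Erbb3, Nrg1 and Btc did not pass the test. The remaining ligands Areg, Ereg, Tgfa and Epgn had too few reads to be tested with the other genes. Among them Areg was higher in every 3D library than in any 2D library. Such a lack of overlap held for 2.91% of the genes with too few reads to be tested, and Areg passed in no fit. In all, 2 of the 6 tested members fell and 0 rose in limma at an adjusted p under 0.05. Of all 11820 tested genes, 3.39% fell and 2.33% rose (5.72% in either direction). With library size as the only scaling these genes split into 498 that rose and 318 that fell, against 275 and 401 with the deposited scaling. The median log2 fold change of all genes then moved from 0.02 to 0.19. Neither call in the family was lost under that scaling. Of these 6 members, no other had an unadjusted p under 0.05 in limma, and edgeR (5.73% of all genes called) and DESeq2 (13.4%) on the recovered reads called the same pair.

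The libraries held 15692699 to 25862036 reads, from 14064 to 14598 genes. Among the defining markers of the labelled cell type, Pax8, the oviductal lineage factor, had 7427 to 11569 normalized counts. The simple-epithelial keratin genes Krt7, Krt8, Krt18 and Krt19 had at least 12267 in every library. Krt7, Krt8 and Krt18, but not Krt19, were lower in every 3D library than in any 2D library, as were 10.4% of all tested genes. Krt7 and Krt18 were not called (limma adjusted p = 0.183 and 0.136). Cdh1 had 17.4 to 104, and Epcam (0 to 29.9), Cldn3 (0 to 7.17) and the secretory marker Ovgp1 (1.19 to 27.2) were low. Krt8 fell by 0.76 on the log2 scale (limma adjusted p = 0.0397). Leaving out any single library other than 2D replicate 4 ended this call (limma adjusted p from 0.0628 to 0.134). It also failed without the filter on low values (limma adjusted p = 0.05004) and in edgeR with every gene fitted (adjusted p = 0.0575). The sum over the 10 epithelial markers was 210908 to 276446 in 2D and 156635 to 212598 in 3D libraries. The part of this difference in the results below was not tested. The sums over 8 stromal markers overlapped between the groups, as did those over 7 leukocyte and 5 endothelial markers. Of the single stromal, leukocyte and endothelial markers, Pdgfra and Csf1r, named after their values were seen, did not overlap between the groups. This held for 18.4% of all tested genes. The stromal marker Pdgfra rose from 4.65 ± 2.40 to 16.6 ± 1.88 normalized counts (SD, n = 4 per group; limma adjusted p = 0.0340), but not when 2D replicate 1 or 3 or any one 3D library was left out. The leukocyte marker Csf1r had 340 ± 97.0 and 177 ± 44.4 (limma adjusted p = 0.0813), and it was called lower by DESeq2 and in limma with the replicate number as a block. The other tested markers of these lists overlapped and did not all move alike. Means in 2D and 3D were 97.6 and 116 for stromal Dcn, 72.5 and 41.6 for stromal Col1a1, and 277 and 441 for leukocyte Cd68 (limma adjusted p from 0.207 to 0.690). The sums over the ciliated cell markers were 1236 to 2132 and 362 to 1407, with 2 of 7 markers at 0 throughout. The most abundant of them on average was Foxj1, at 1353 ± 359 and 499 ± 372 (limma adjusted p = 0.0706). Foxj1 was called lower by DESeq2 and in limma without 3D replicate 4. Rsph1 had 151 ± 41.2 and 202 ± 36.1 and Tppp3 80.9 ± 69.9 and 64.1 ± 67.1 (limma adjusted p = 0.337 and 0.789). Transcripts typical of liver and intestine, summed over 8 genes, were highest in 2D replicate 2 (535) and 3D replicate 1 (411) and lowest in 3D replicate 4 (4.57). Fewer cells of a type and less RNA per cell cannot be told apart in such bulk samples.

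Egfr, the receptor for most of these ligands, lies on chromosome 11 (16752203 to 16918158, mm10, plus strand). In 2D replicates 1 to 4 it had 2133, 2270, 2288 and 1716 normalized counts, the reads divided by the size factor of the library. In 3D replicates 1 to 4 it had 1075, 881, 818 and 850. The groups did not overlap, and the highest 3D library lay well under the lowest 2D library. Groups without overlap were found for 18.4% of all tested genes, and for 10.4% with the 3D libraries lower. The mean fell from 2102 ± 266 to 906 ± 115 (SD, n = 4 per group). The log2 fold change was −1.21, with a 95% interval from −1.56 to −0.87 (limma adjusted p = 0.00438). Ordered from the strongest decrease, Egfr stood at place 197 of 11820 genes. Without any 1 of the 8 libraries the log2 fold change was −1.31 to −1.17 and the limma adjusted p 0.00500 to 0.0267.

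Erbb2, the shared partner receptor (chromosome 11, 98412470 to 98437716, plus strand), had 1937, 2993, 2498 and 2145 normalized counts in 2D replicates 1 to 4. In the 3D replicates it had 2031, 1740, 1985 and 1690. The groups overlapped, since 3D replicates 1 and 3 exceeded 2D replicate 1. Its log2 fold change was −0.35, with a 95% interval from −0.72 to 0.02 (limma adjusted p = 0.232). This interval allows a decrease of up to 1.64-fold and does not show that Erbb2 was alike in the groups.

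Erbb3, the neuregulin receptor (chromosome 10, 128567523 to 128589652, minus strand), had 143, 176, 209 and 91.9 normalized counts in the 2D libraries. Its 3D values were 160, 220, 132 and 130. The groups overlapped, with the lowest value in 2D replicate 4 and the highest in 3D replicate 2, and the means were 155 ± 49.8 and 160 ± 42.1 (SD, n = 4 per group). The 95% interval of the log2 fold change ran from −0.61 to 0.77 (limma adjusted p = 0.903). The sign of this small difference turned without 2D replicate 4 or 3D replicate 2.

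**Figure D1:**
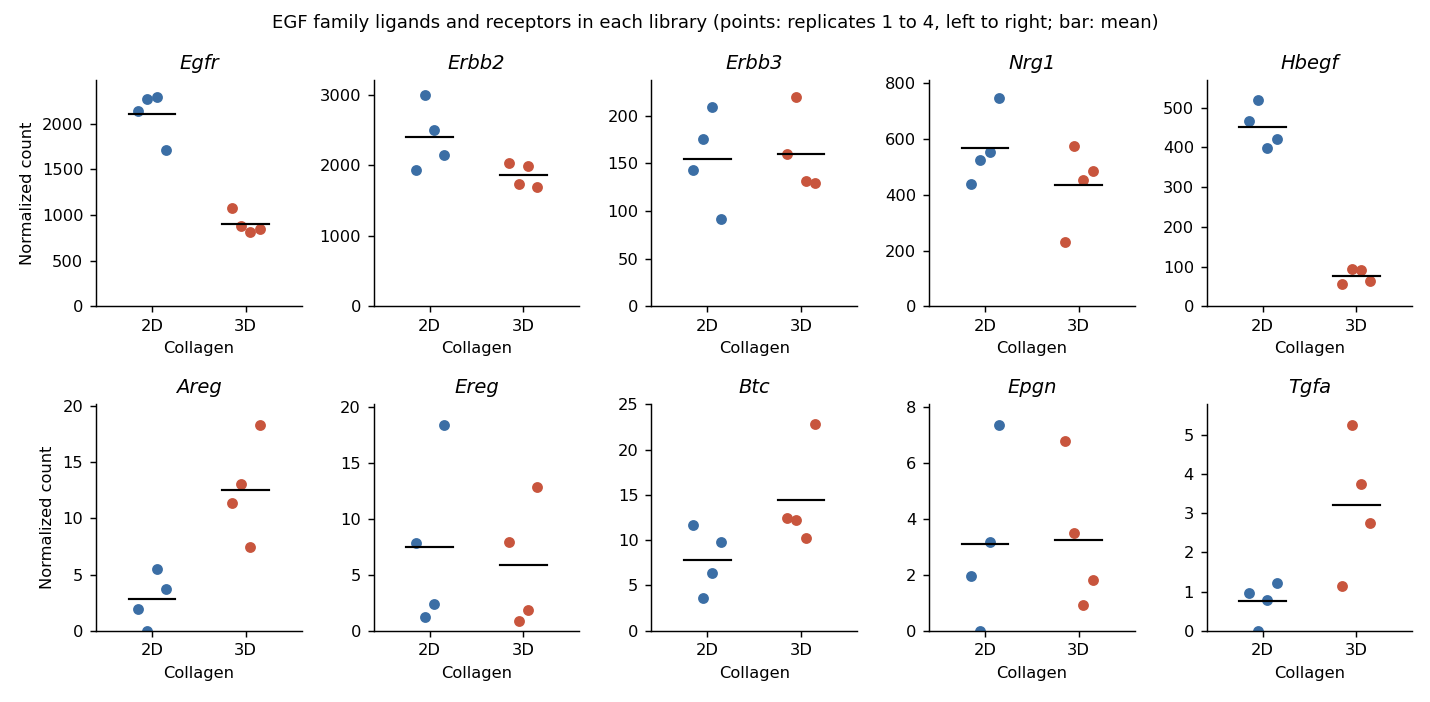
Normalized counts (vertical axes, starting at 0) of the 10 genes in the 4 libraries on 2D collagen and the 4 on 3D collagen; points are libraries in the order of their replicate numbers and bars are means. The 2 groups are apart for Egfr, Hbegf and Areg, and share part of their range for the other genes.

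Hbegf, heparin-binding EGF-like growth factor, is a ligand of Egfr (chromosome 18, 36504927 to 36515805, minus strand). It had 465, 520, 398 and 422 normalized counts in 2D replicates 1 to 4, from 344 to 503 reads. In 3D replicates 1 to 4 it had 56.6, 94.3, 91.4 and 64.0, from 50 to 108 reads. The highest 3D value, 94.3, lay far under the lowest 2D value, 398. The mean fell from 451 ± 53.6 to 76.6 ± 19.1 (SD, n = 4 per group). The log2 fold change was −2.57, with a 95% interval from −3.10 to −2.03 (limma adjusted p = 0.00144). Ordered as for Egfr, Hbegf stood at place 21 of 11820 genes. Without any 1 library the change of Hbegf on the log2 scale lay between −2.68 and −2.44, with limma adjusted p of 0.00199 to 0.00888.

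Nrg1, neuregulin 1, is the ligand of Erbb3 among these genes (chromosome 8, 31814551 to 32884029, minus strand). It had 439, 524, 551 and 746 normalized counts in the 2D libraries and 232, 574, 451 and 483 in the 3D libraries. The groups overlapped widely, with 3D replicate 1 lowest and 2D replicate 4 highest. The log2 fold change was −0.43, with a 95% interval from −1.08 to 0.23 (limma adjusted p = 0.411). With GC trends removed and the replicate number as a block, Nrg1 fell by 0.66 on the log2 scale (limma adjusted p = 0.0197). Over all alternatives its adjusted p was 0.0197 to 0.741 in limma, edgeR and DESeq2. An antisense gene model overlaps 4.66% of its exonic bases.

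Areg, amphiregulin, a ligand of Egfr alone among the receptors (chromosome 5, 91139599 to 91148432, plus strand), was rare. It had 2, 0, 7 and 3 reads in 2D replicates 1 to 4 and 10, 15, 8 and 20 reads in 3D replicates 1 to 4. A count of 0 in 2D replicate 2 allows up to 3 reads there. In normalized counts the means were 2.79 ± 2.37 and 12.5 ± 4.50 (SD, n = 4 per group), a ratio of 4.50. The groups did not overlap, which held for 2.91% of the 4878 genes with a read that were below the filter (1.66% with the 3D libraries higher). The exact permutation test, two-sided and unadjusted, gave p = 0.0286, the smallest that 4 against 4 libraries allow. When every gene with a read was fitted, the value of Areg on the log2 scale was 2.07, and it did not pass (limma adjusted p = 0.0853). The same fit with edgeR gave 2.09 (adjusted p = 0.108).

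The sequences before the starts of Egfr, which fell, and Areg, whose groups were apart in the other direction without a call, are shown. They share the GC box described below, and Areg holds further motifs. Promoter sequences from RefSeq (GRCm38.p6) matched 6 of the 10 genes, and there was none for Hbegf, Ereg, Erbb3 and Nrg1. Of the 250 bases before the start, 5 motifs were searched on both strands: TGANTCA (AP-1), TGACGTCA (CRE), GGAATG (TEAD), GGGCGG (GC box) and, for the TATA box bound by basal factors, the letters TATAAA. Capitals mark the matches, and both runs are written 5′ to 3′ on the plus strand, for chr11:16751953-16752202 and chr5:91139349-91139598.
Egfr: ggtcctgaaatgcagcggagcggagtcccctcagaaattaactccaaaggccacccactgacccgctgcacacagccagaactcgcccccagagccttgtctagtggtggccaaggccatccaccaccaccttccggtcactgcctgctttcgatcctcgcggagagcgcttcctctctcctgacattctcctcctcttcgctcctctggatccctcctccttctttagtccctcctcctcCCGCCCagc
Areg: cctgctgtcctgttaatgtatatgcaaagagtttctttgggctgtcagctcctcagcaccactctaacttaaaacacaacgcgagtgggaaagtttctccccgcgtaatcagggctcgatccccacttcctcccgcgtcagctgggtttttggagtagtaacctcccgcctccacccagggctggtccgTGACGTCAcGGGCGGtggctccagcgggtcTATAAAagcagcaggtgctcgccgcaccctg
The window of Areg holds a CRE beginning 61 bases, a GC box 52 bases and a TATA box 31 bases before the start, none of which overlap. The window of Egfr holds a GC box beginning 9 bases before the start, on the minus strand, and neither of the other 2 motifs of Areg. Of 32851 promoter windows of this length, 1.55% hold the CRE, 12.4% the TATA box and 32.7% the GC box. Neither window holds the AP-1 letters (6.75% of all windows) or the TEAD letters (12.6%). Of the other matched genes, Epgn held a TATA box, Tgfa 2 GC boxes, Erbb2 the TEAD letters and Btc none of the 5 motifs. A relation of these motifs to the differences between the groups was not tested. The matches describe the letters in these windows, and the binding of factors was not measured.

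Btc, betacellulin, which binds Egfr and Erbb4, had 11.7, 3.58, 6.33 and 9.80 normalized counts in the 2D libraries and 12.5, 12.2, 10.3 and 22.9 in the 3D libraries. The groups overlapped because 2D replicate 1 exceeded 3D replicate 3. Btc passed the filter of 10 normalized counts in 4 libraries through all 4 of the 3D libraries but only 1 of the 2D libraries. Its log2 fold change was 0.84, with a 95% interval from −0.12 to 1.81 (limma adjusted p = 0.265). Tgfa, transforming growth factor alpha, had 1, 0, 1 and 1 reads in the 2D and 1, 6, 4 and 3 reads in the 3D libraries. The exact permutation test gave p = 0.0571 for Tgfa (two-sided, unadjusted), and no fit passed it (limma adjusted p = 0.155 with every gene fitted). This depth of 17 reads in all leaves its level imprecise.

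Ereg (epiregulin) and Epgn (epigen) were as rare and showed no order by substrate. Ereg had 8, 1, 3 and 15 reads in the 2D and 7, 1, 2 and 14 reads in the 3D libraries. Its highest values fell in replicate 4 of both groups, and the exact permutation test gave p = 0.714 (two-sided, unadjusted). Epgn had 2, 0, 4 and 6 reads in the 2D and 6, 4, 1 and 2 reads in the 3D libraries (exact permutation p = 0.943, two-sided, unadjusted). A difference between the groups was not detectable at this depth for either gene.

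The rare ligands Epgn, Ereg, Areg and Btc lie beside each other on chromosome 5, within 375.5 kb (91027464 to 91402994). Epgn, Ereg and Areg are on the plus strand with 39.4 and 46.0 kb between them, and Btc follows on the minus strand after a further 209 kb. Of the symbols in the deposited values, 5 lie in this span, the 4 ligands and the gene model Gm19619. Of the neighbours of Areg, Ereg had 27 reads over the 2D and 24 over the 3D libraries, and Btc had 31 and 61. Whether these differences differ from that of Areg was not tested. An antisense gene model, Gm19610, overlaps 3.42% of the exonic bases of Ereg.

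Levels were compared between genes as normalized counts per kilobase, dividing by the exonic bases of all annotated transcripts of a gene. In 2D libraries Erbb2 stood highest at 459 ± 88.7 per kilobase (SD, n = 4). It was followed by Egfr (186 ± 23.5), Hbegf (93.3 ± 11.1), Nrg1 (54.6 ± 12.5) and Erbb3 (25.7 ± 8.28). The ranges over libraries of these 5 did not overlap between neighbours. This order depends on the division by length: in normalized counts Egfr was above Erbb2 in 2D replicate 1 (2133 against 1937). The other 5 ligands had at most 2.30 per kilobase on average, and their ranges overlapped. In 3D libraries Erbb2 (357 ± 32.9) and Egfr (80.0 ± 10.2) kept the first places. Nrg1 (42.0 ± 14.0) then stood above Erbb3 (26.6 ± 7.0) with overlapping ranges, and Hbegf (15.8 ± 3.94) was the fifth. Areg (10.3 ± 3.70) followed with a range from 6.14 to 15.1 that overlapped that of Hbegf, 11.7 to 19.5. Btc (3.20 ± 1.26), Epgn, Ereg and Tgfa came last.

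The 6 ligands that bind Egfr (Hbegf, Areg, Btc, Ereg, Epgn and Tgfa) summed to 90.7 to 109 normalized counts per kilobase in 2D libraries. In 3D libraries the sum was 28.9 to 37.9. Hbegf made up 92.2% ± 5.30 of this sum in 2D (SD, n = 4, lowest 86.2%) and 48.6% ± 14.0 in 3D (highest 65.5%). The share of Areg was 2.39% ± 2.14 in 2D and 30.6% ± 7.56 in 3D. The sum without Hbegf was 1.08 to 13.9 in 2D and 9.96 to 24.6 in 3D libraries, and these ranges overlapped.

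**Figure D2:**
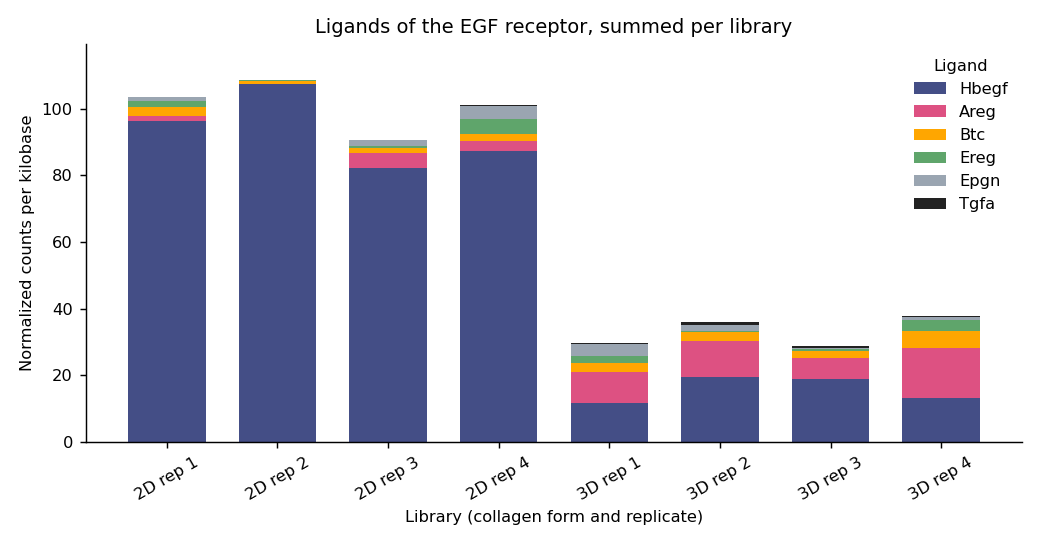
Normalized counts per kilobase of exon (vertical axis) of the 6 ligands of Egfr, stacked for each of the 8 libraries. Hbegf makes up at least 86.2% of each 2D bar and at most 65.5% of each 3D bar, and the 3D bars reach 28.9 to 37.9 against 90.7 to 109.

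Ratios between members within a library do not depend on the scaling of that library. Egfr amounted to 0.411 ± 0.0706 of Erbb2 per kilobase in 2D (SD, n = 4, from 0.349 to 0.506) and to 0.224 ± 0.0238 in 3D libraries (from 0.190 to 0.243). The ranges did not overlap, so Egfr was lower relative to Erbb2 in each 3D library. Erbb3 relative to Erbb2 was 0.0371 to 0.0724 in 2D and 0.0574 to 0.110 in 3D, with overlap. Nrg1 amounted to 0.596 ± 0.178 of Hbegf in 2D (from 0.441 to 0.827) and to 2.65 ± 0.698 in 3D libraries (from 1.91 to 3.52). Per kilobase, Hbegf thus exceeded Nrg1 in every 2D library, and Nrg1 exceeded Hbegf in every 3D library. The 2D order rests on the division by exonic length. In normalized counts Nrg1 was above Hbegf in 2D replicates 2, 3 and 4 (524, 551 and 746 against 520, 398 and 422).

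**Figure D3:**
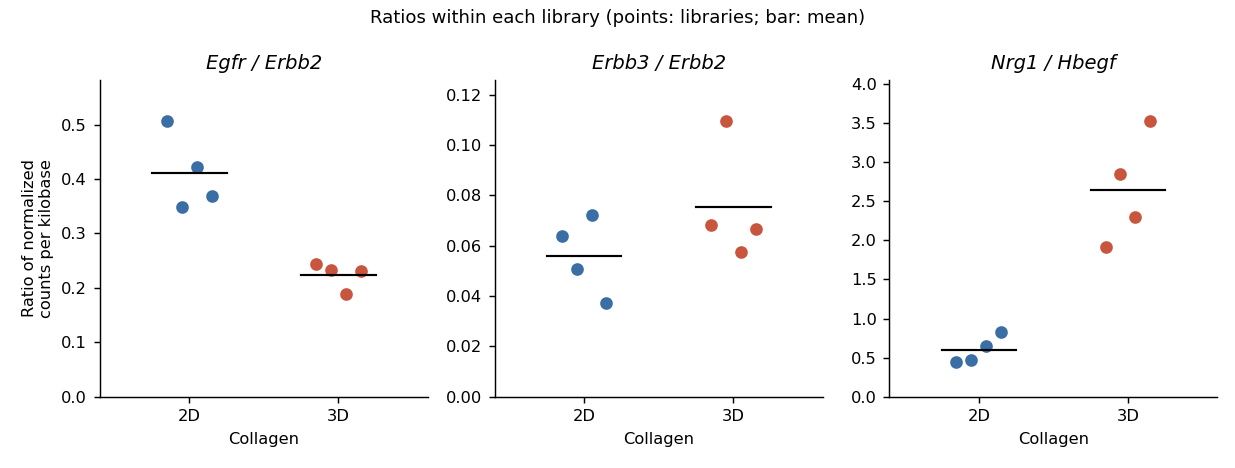
Ratio of normalized counts per kilobase between 2 genes of the same library (vertical axes, starting at 0), with points for libraries and bars for means. Egfr to Erbb2 is at most 0.243 in 3D and at least 0.349 in 2D libraries, Erbb3 to Erbb2 overlaps, and Nrg1 to Hbegf is under 1 in 2D and above 1 in 3D libraries.

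Of 7 other genes listed with the family, 5 had no read, among them Tdgf1 and Cfc1, which do not encode ERBB ligands. Erbb4, the remaining receptor, and Nrg2, Nrg3, Tdgf1 and Cfc1 had 0 reads in every library. A count of 0 allows up to 3 reads in a library taken alone, and the 8 libraries together allow less per library. Egf itself, given because the medium lacked the protein, had 43 reads over the 8 libraries, with 0 to 11.7 normalized counts in 2D and 2.26 to 6.53 in 3D. Nrg4, a ligand of Erbb4, was tested and had 29.7 ± 4.75 and 38.4 ± 7.06 normalized counts (SD, n = 4 per group; limma adjusted p = 0.467), and opposite-strand gene models overlap 8.97% of its exonic bases.

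Genes that release or restrain these signals were counted over lists, beside a median log2 fold change of 0.02 over all genes. Of all tested genes, 3.39% fell and 2.33% rose. Of 12 tested sheddases, iRhoms and their regulators, 2 fell (16.7%) and 0 rose, with a median of 0.08 and a range from −1.67 to 1.14. The log2 fold change was below 0 in 6 of the 12. The metalloprotease Adam8 fell from 1334 ± 180 to 660 ± 110 normalized counts (SD, n = 4 per group; limma adjusted p = 0.0126). Rhbdf1, which encodes iRhom1, a partner of the sheddase ADAM17, fell from 1747 ± 435 to 971 ± 155 (limma adjusted p = 0.0427). Rhbdf1 did not pass when the filter or any single library other than 2D replicate 1 was left out (limma adjusted p from 0.0535 to 0.128). Named after its values were seen, the inhibitor Timp3 had 547 ± 292 and 172 ± 85.9 (limma adjusted p = 0.111). DESeq2 and the block fits in limma and edgeR called it lower. Adam17 had 263 ± 126 and 450 ± 103 (limma adjusted p = 0.192). Frmd8 was called higher with library size, and Rhbdf2 and Frmd8 after GC correction. Of 21 feedback and turnover genes of the receptors, 0 changed (median 0.05). Without single libraries the medians of these lists ranged from −0.07 to 0.15 and from −0.11 to 0.17. The most abundant by the mean over all 8 libraries were Errfi1, an inhibitor of the Egfr kinase, at 4926 ± 1813 and 5488 ± 1840, and the tetraspanin Cd82 at 5996 ± 2267 and 5301 ± 1695 (limma adjusted p = 0.806 and 0.801). In 4 of these 21 genes the groups did not overlap, 1 of them higher on 3D collagen, beside 18.4% of all tested genes. DESeq2 called 1 higher and 2 lower, edgeR called 0, and the fit with the replicate number as a block called 1 higher and 2 lower.

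Of 35 adaptors and kinases close to the receptors, 4 fell and 1 rose, with a median of −0.17 (0.0057 with library size as the only scaling, −0.051 without 3D replicate 4). The PI3K catalytic subunit Pik3cb fell from 603 ± 79.5 to 296 ± 27.8 normalized counts (SD, n = 4 per group; limma adjusted p = 0.0124). The exchange factor Vav2 fell from 3657 ± 932 to 1732 ± 291 (limma adjusted p = 0.0225). The phosphatase Ptpn11 (SHP2) fell from 5888 ± 820 to 3784 ± 271 (limma adjusted p = 0.0381). The adaptor Nck2, named after its value was seen, rose from 157 ± 52.5 to 363 ± 80.1 (limma adjusted p = 0.0483). With library size as the only scaling, Ptpn11 did not pass (limma adjusted p = 0.0536). In edgeR with every gene fitted it did not pass either (adjusted p = 0.0631). Leaving out single libraries ended the calls of Ptpn11 (all but 2D replicate 4), Nck2 (all but 2D replicate 2), Vav2 (2D replicate 3, 3D replicates 1 and 3) and Pik3cb (3D replicate 3). Limma adjusted p was then 0.0510 to 0.145. Ptpn11 and Nck2 also failed without the filter (limma adjusted p = 0.0546 and 0.0580).

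Transcripts known to follow ERK activity had a median of 0.53, and 1 of 21 rose and 1 fell (4.76% each). This median was 0.16 without 3D replicate 1, 0.34 without 2D replicate 4 and 0.85 without 3D replicate 4. Dusp4, a nuclear MAP kinase phosphatase, had 287, 465, 320 and 333 normalized counts in 2D and 1610, 1869, 757 and 677 in 3D libraries. All 3D values were above all 2D values, with replicates 1 and 2 far above 3 and 4. The log2 fold change was 1.69 with SE 0.34 (limma adjusted p = 0.0258). Dusp4 still passed when 2D replicate 2 or 3D replicate 4 was left out, but not when any other library was (limma adjusted p from 0.0528 to 0.0786). The transcription factor Myc fell from 801 ± 182 to 371 ± 51.3 normalized counts (SD, n = 4 per group; limma adjusted p = 0.0192). Leaving out 3D replicate 1 or 3 ended the call of Myc (limma adjusted p = 0.0622 and 0.0768). Over the 90 tested genes of these lists, Nrg4 included, 2 rose (2.22%) and 7 fell (7.78%), against 2.33% and 3.39% of all genes. Leaving out 3D replicate 1, 2, 3 or 4 gave 0 and 2, 0 and 4, 0 and 1, or 2 and 5 genes. Leaving out 2D replicate 1, 2, 3 or 4 gave 1 and 7, 3 and 7, 0 and 3, or 0 and 5. With the replicate number as a block they were 6 and 15.

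**Figure D4:**
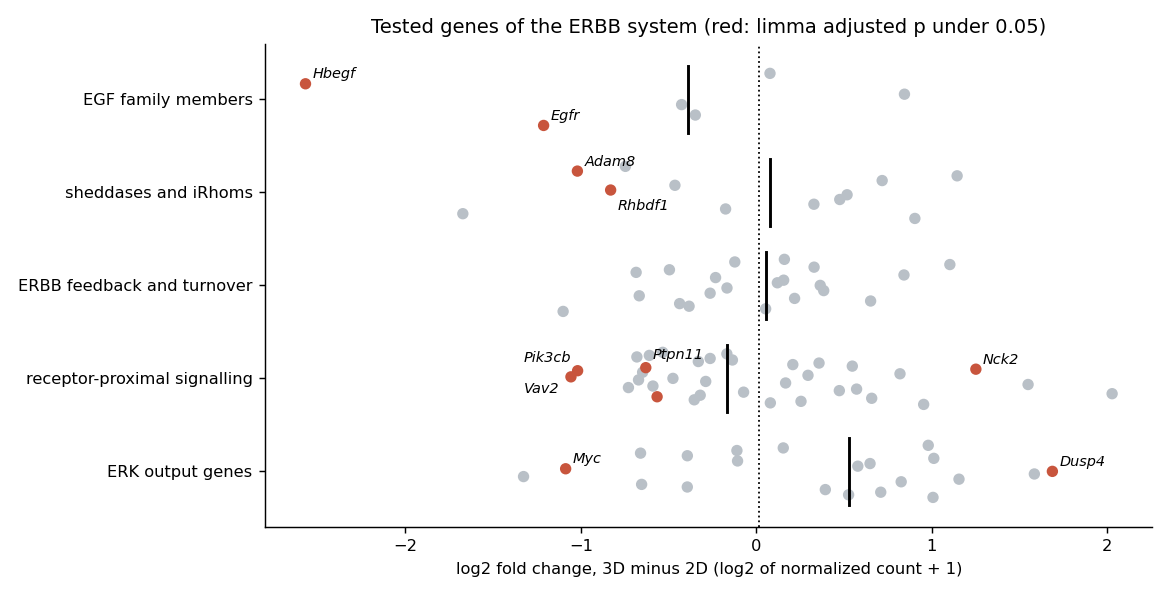
Log2 fold change of 3D over 2D collagen (horizontal axis) for the tested genes of the family and of 4 pathway lists; red points passed limma at an adjusted p under 0.05, those described in the text are named, short bars are list medians and the dotted line is the median of all genes, 0.02. Hbegf, at −2.57, lies farther from 0 than any other point.

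The tested genes with the most similar profiles over the 8 libraries were found by the mean absolute difference of gene-centred log2 values, among 10869 genes with descriptive symbols. For Hbegf the nearest were Smtn (difference 0.17) and Hsd17b7 (0.23). For Egfr they were Tnfrsf21 (0.13), Mfn2 (0.13) and Cdr2 (0.14), each with a log2 fold change between −1.04 and −1.01. For Erbb2 they were Zfat, Cyhr1 and Fxc1, each at 0.06. Genes that vary less over the libraries tend to have smaller differences, so the distances are not comparable between members.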

How the data were processed

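RNA was sequenced in 8 libraries, 4 per substrate. Per the submitters' processing notes, the authors counted reads with HTSeq 0.6.1p1 on mm10 and used DESeq2. Aligner, annotation and strand setting: not given in the sources used here. Therefore sense and antisense reads cannot be told apart. The deposited signal per gene came out as whole multiples of 1 read in 100% of values (tolerance 0.001 reads). It thus holds counts over a library-wide size factor, and the reads were recovered from it. No 2 libraries of the same group agreed within sampling noise.

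Log2(normalized count + 1) was tested in limma 3.58.1 under R 4.3.3, the prior variance being trended and robust. It covered genes with at least 10 normalized counts in at least 4 libraries. Benjamini-Hochberg adjustment ran over all 11820 genes, at a threshold of 0.05. Members under the filter were given an exact permutation test over 70 splits. edgeR 4.0.16 and DESeq2 1.42.0 were alternatives on the recovered reads. Further alternatives were other pseudocounts, filters and scalings, leaving out each library, a block for the replicate number and a lowess GC correction (span 30%, 11711 genes). edgeR with the block and edgeR on every gene with a read were chosen after seeing the data.

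Positions, exonic lengths and GC content came from GENCODE M21 (GRCm38), which matched 22856 of 23337 symbols. On simulated data limma recovered 15% of genes changed 2-fold and 76% of those changed 4-fold (100 genes each, 11820 tested). The members and lists were chosen with earlier results of these data known, and the liver and intestine list was added later. Named genes were the members, up to 4 genes with the smallest adjusted p in each list (or the 2 most abundant where none passed), the cell type markers and the 3 nearest profiles of the 3 members with the smallest adjusted p. Some genes that this rule took are not reported here.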

Additional observations from a re-analysis of the deposited data

Results flagged for a closer look

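In 64 pairs of a named gene and a group, 2 single libraries lay far from the other 3 of their group, and chance alone gives about 1 in 20. Myc had 448 normalized counts in 3D replicate 2, where the nearest 3D library had 352. Zfat, one of the nearest profiles of Erbb2, had 238 normalized counts in 3D replicate 4, where the nearest had 273. No value of the 10 EGF family genes stood apart in this way.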

How the results depend on the processing

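Egfr and Hbegf kept their direction and their calls under all 22 alternatives, with log2 fold changes of −1.39 to −1.04 and −2.68 to −2.40. The count of family members that rose was 0 throughout, and 2 fell except with the replicate block and GC correction together, where Nrg1 made it 3. Genes that rose and fell numbered 708 and 871 in DESeq2, 482 and 605 after GC correction and 498 and 318 with library size. Limma called 676 and edgeR 677 genes. With the replicate block they were 663 and 742 (limma), 718 and 643 (edgeR) and 997 and 1078 (with GC correction). Pathway genes that rose and fell numbered 7 and 15 in DESeq2, 8 and 12 after GC correction, 6 and 6 with library size and 1 and 5 without the filter. With the replicate block they were 6 and 15 (limma), 4 and 13 (edgeR) and 12 and 19 (with GC correction). Leaving out 1 library gave 44 to 267 genes higher and 104 to 370 lower, and 0 to 3 and 1 to 7 pathway genes. The cause of these changes between settings was not tested.

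Reversed signs were found for genes that passed nowhere. The log2 fold change of Cd82 was −0.17, and it was 0.0064 with library size, 0.0027 after GC correction, with or without the replicate block, and −0.40 to 0.10 without single libraries. Errfi1 and Erbb3 ranged from −0.034 to 0.39 and from −0.15 to 0.24 without single libraries. Replicate numbers were not taken as pairs because not every same-numbered pair correlated above 0.1: deviations from the group means correlated at −0.17, 0.37, 0.25 and 0.81 for numbers 1 to 4, and 2D replicates 1 and 2 and 3D replicate 1 correlated best with another number, the other 5 libraries with their own. Under the replicate block limma kept the calls of Egfr (adjusted p = 0.00459) and Hbegf (adjusted p = 0.00186). Depth limits Areg, Ereg, Tgfa and Epgn, which had 17 to 65 reads over all libraries.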
